A study of Mus musculus with 2 samples.

Results

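Spleen RNA of adult mice held transcripts of 33 genes of the pancreatic acinar cell, the cell that makes and stores digestive enzymes. The 33 genes were chosen by symbol from what earlier work on the same libraries had shown, as acinar enzymes, secretory proteins and acinar transcription factors, and all 33 were found among 43346 genes. Because the high levels of these genes in these libraries prompted the choice, their levels are given as a description and carry no test. The tissue came from C57BL/6J mice, the reference inbred laboratory strain, at 8 weeks of age, with no transgene, treatment or second group named. Per the labels, the animals were littermates of both sexes, the sex of the sample was not recorded and the health state is unknown. The 2 samples are biological replicates 1 and 2 of 1 group, called library 1 and library 2. They are stranded poly(A) libraries of RNA longer than 200 nucleotides, depleted of ribosomal RNA and read from both ends over 76 bases. Both carry the same donor identifier, and nothing says whether they came from separate animals, so the spread between them may be technical.

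Acinar cells synthesise most digestive enzymes as inactive zymogens, pack them in granules and release them into the ducts of the pancreas. In the gut, enteropeptidase activates trypsinogen, and trypsin then activates chymotrypsinogens, proelastases, procarboxypeptidases and phospholipase. Inside the cell, the transcription factors PTF1A and RBPJL, joined in the PTF1 complex, drive the enzyme genes, and BHLHA15 (also called MIST1) and NR5A2 maintain the secretory state. The spleen is a lymphoid organ that filters blood. Its own cells are not known for making these enzymes, and the tail of the pancreas lies beside it. How acinar transcripts came to be in the spleen RNA was not tested.

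Acinar transcripts were among the most abundant of the whole RNA. The 33 genes together held 11.8% of the TPM of all genes in library 1 and 9.59% in library 2, a mean of 10.7% ± 1.58 (SD, n = 2). TPM is a level of transcripts per length, scaled to a fixed total, so it can be compared between genes. As reads, they took 3698475 of 49686344 expected counts in library 1 (7.44%) and 3546448 of 51393345 in library 2 (6.90%). The haemoglobin genes of red cells held 19.5% and 30.8% of the TPM, so the scale against which a share is read differed between the libraries. In bulk RNA, fewer cells of a type and less RNA per cell cannot be told apart.

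Of the 33 genes, 32 were detected at 1 TPM or more in both libraries, and the transcription factor gene Nr5a2 was below that limit. Levels above 1000 TPM in both libraries were seen for 14 genes, and above 100 TPM for 20. Among 21474 protein-coding genes ranked by TPM, 15 of the first 100 places in library 1 and 17 in library 2 belonged to these genes. The median of the 33 was 444 TPM in library 1, which is the value of Prss3, and 728 TPM in library 2, which is that of Amy2a5. Levels kept nearly the same order in both libraries, with a Pearson correlation of 0.964 of log2(TPM + 1) and a Spearman correlation of 0.971 across the 33 genes, which are not independent replicates and share a library.

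**Figure D1:**
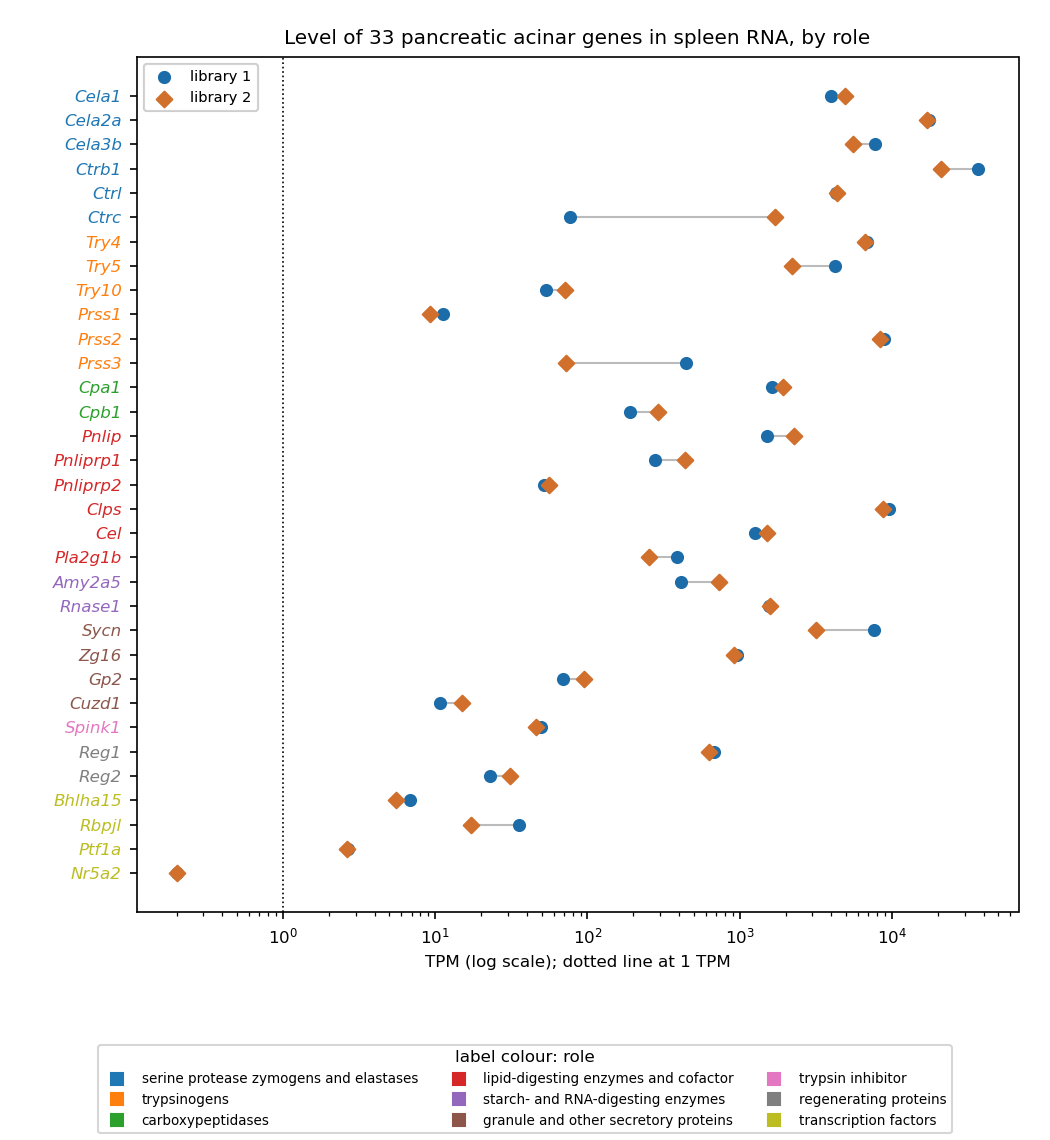
Level of each of the 33 acinar genes in TPM, on a log axis, with a circle for library 1, a diamond for library 2 and a line joining the pair, and with gene names coloured by role. The symbols of most genes nearly coincide, those of Ctrc (76.3 and 1698 TPM) and Prss3 (444 and 72.6 TPM) stand apart, and Nr5a2 is the only gene left of the dotted line at 1 TPM.

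Libraries were compared by the log2 ratio of scaled expected counts, library 2 over library 1, where the TMM scaling sets the typical gene near 0. A ratio of 1 library to another has no replicate check, and no exact test over 2 samples can reach 0.05. An exact two-sided binomial test on the counts, with Benjamini-Hochberg adjustment over 17547 genes, therefore compares these libraries and holds counting error only, as do the exact 95% intervals given with each fold. The 33 genes had a median log2 ratio of 0.12, beside 0.01 for all genes tested. By this test 21 of them were higher in library 2, beside a background of 24.3% of all genes tested, and 8 were lower, beside 26.0%. Of all genes tested, 50.3% passed in either direction. The other 4, Prss1, Spink1, Ptf1a and Nr5a2, did not pass. At the depth of these genes the test reaches very small differences, such as 1.04-fold for Reg1, so the count is a measure of depth as much as of difference.

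The split into higher and lower depended on the scaling. Scaled to the added spike-in RNA, which made up 0.670% of the counts in library 1 and 1.24% in library 2, every log2 ratio fell by 0.93. Then 2 of the 33 genes, Ctrc and Amy2a5, were higher in library 2 and 31 lower, with a median of -0.81 beside -0.91 for all genes tested. As a plain difference of log2(TPM + 1), 15 were above 0 and 17 below. Directions below are relative to the typical gene, on the TMM scale.

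A limit of 2-fold separated few of the genes. Of the 33, 1 was past it with a higher level in library 2 (Ctrc) and 2 with a lower level (Prss3 and Sycn). Among all genes tested, 4.43% were past it upward and 2.81% downward, 7.24% in all. Among the 12495 genes at 1 TPM or more in both libraries the shares were 1.00% upward and 0.904% downward, 1.90% in all. The median size of the log2 ratio, sign left aside, was 0.37 for the acinar genes, 0.25 for all genes tested and 0.20 for the genes at 1 TPM or more in both. Just inside the limit lay Amy2a5 at 0.95 and Rbpjl at -0.92, and just outside it Sycn at -1.07.

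**Figure D2:**
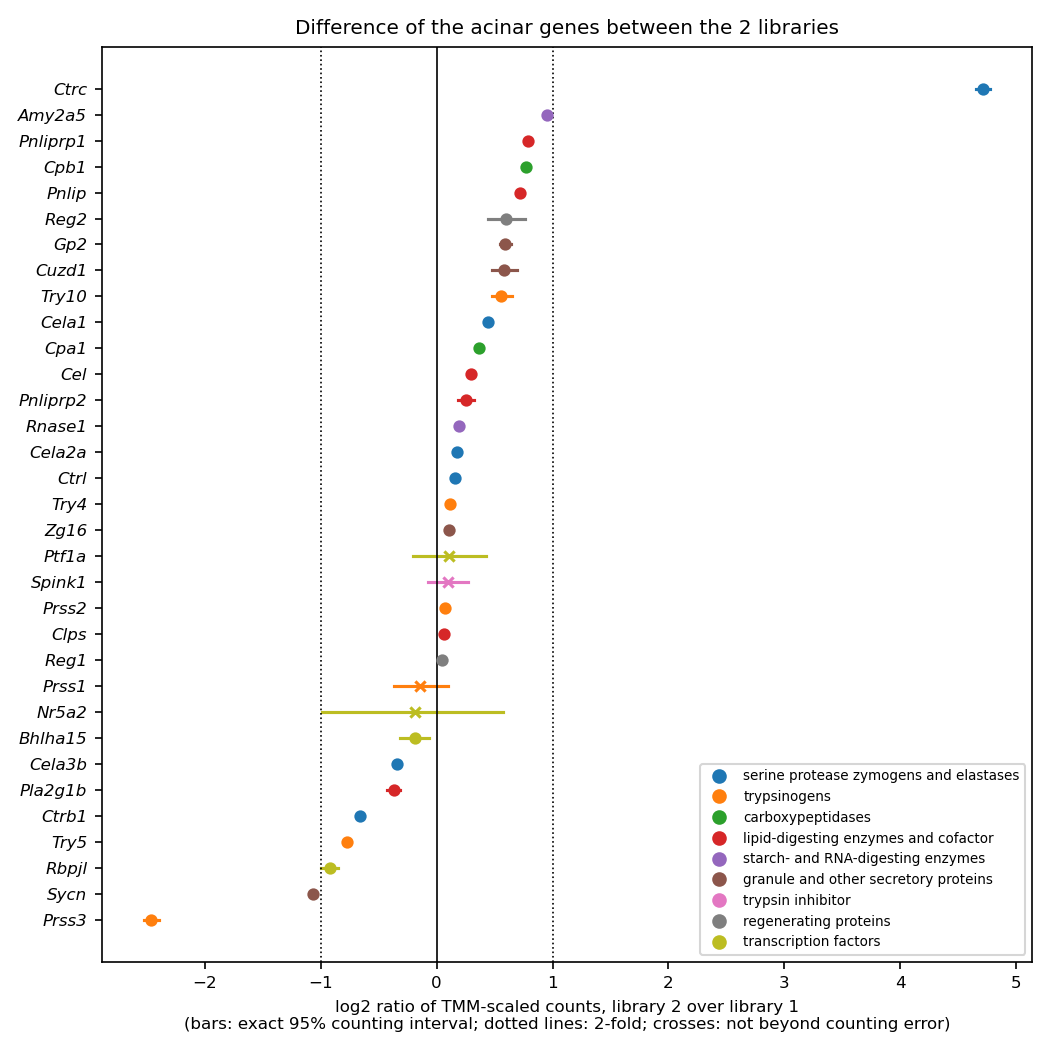
Log2 ratio of TMM-scaled counts, library 2 over library 1, for the 33 acinar genes ordered by ratio and coloured by role, with bars for the exact 95% counting interval, crosses for the 4 genes not beyond counting error and dotted lines at 2-fold. Ctrc (4.71) and Prss3 (-2.46) lie far from the rest, and with spike-in scaling, which moves every point by -0.93, all genes but Ctrc and Amy2a5 lie below 0.

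Chymotrypsinogens and proelastases were the most abundant role and held 60.3% of the TPM of the 33 genes in library 1 and 57.6% in library 2. These serine protease precursors cleave proteins after different residues once trypsin has activated them. Ctrb1, which encodes chymotrypsinogen B (ENSMUSG00000031957, chromosome 8, 111686519 to 111691010, minus strand, GRCm38), had 36979 TPM in library 1 against 21059 TPM in library 2. It held place 4 among protein-coding genes in both, and was 1.58-fold lower in library 2 (interval 1.58 to 1.59). Ctrb1 alone was 31.5% of the acinar TPM in library 1 and 22.3% in library 2, and without it the other 32 genes held 8.09% and 7.46% of the TPM of all genes. Ctrb1 thus carried most of the difference in share between the libraries.

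Cela2a, a proelastase gene (ENSMUSG00000058579, chromosome 4, 141814962 to 141826160, minus strand), stood at 17542 and 16979.9 TPM in libraries 1 and 2, a log2 ratio of 0.18 that is above 0 on the count scale and below 0 as a TPM difference (-0.05). Cela3b, another proelastase gene, stood at 7751 and 5537 TPM and was 1.26-fold lower in library 2 (interval 1.26 to 1.27). The level of Cela2a was 2.26 times that of Cela3b in library 1 and 3.07 times in library 2. Cela1, the elastase gene long used as a model of acinar transcription, moved the other way, with 3969 and 4888 TPM and a 1.36-fold higher value in library 2 (interval 1.35 to 1.37). Ctrl, which encodes a chymotrypsin-like protease, was nearly level at 4322 and 4345 TPM. Of the stretches of 76 bases in the Cela3b transcript, 20.7% occur also in Cela3a, so a part of its reads was divided by estimation. Cela3a itself stood at 4.43 and 2.92 TPM.

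Ctrc, which encodes chymotrypsinogen C (ENSMUSG00000062478, chromosome 4, 141814962 to 141846359, minus strand), differed most. Its product cuts trypsinogen and trypsin and so regulates trypsin activity. The gene held 2557 expected counts and 76.3 TPM in library 1, against 67804 counts and 1698 TPM in library 2. Library 2 was 26.3-fold higher (interval 25.2 to 27.3), and the gene moved from place 1332 to place 44 among protein-coding genes. Ctrl, of similar length and function, was 56.7 times the level of Ctrc in library 1 and 2.56 times in library 2. The difference lay far outside counting error and remained on every scaling tried. The strain of both libraries is as labelled, and whether both came from the same substrain of C57BL/6 was not tested, for this gene or for Prss3 and its neighbours below.

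The difference in Ctrc came from 1 of its 5 annotated transcripts. Ctrc-204, a full-length form with 8 exons that the annotation calls a processed transcript rather than protein coding, had 55.4 TPM in library 1 against 1689 TPM in library 2. It was 33.8-fold higher in library 2 (interval 32.3 to 35.4) and held 72.6% and 99.5% of the gene's TPM. Ctrc-202, annotated as protein coding and lacking 1 internal exon of 98 bases, went the other way, from 20.2 TPM (26.6% of the gene) to 3.68 TPM (0.220%), 4.94-fold lower. The full-length protein-coding model, Ctrc-201, was at 0.50 and 1.11 TPM. Ctrc-205, a nonsense-mediated decay form that runs on into the neighbouring Cela2a gene, was at 0.180 and 0.990 TPM, and Ctrc-203 at 0 and 2.35 TPM.

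**Figure D3:**
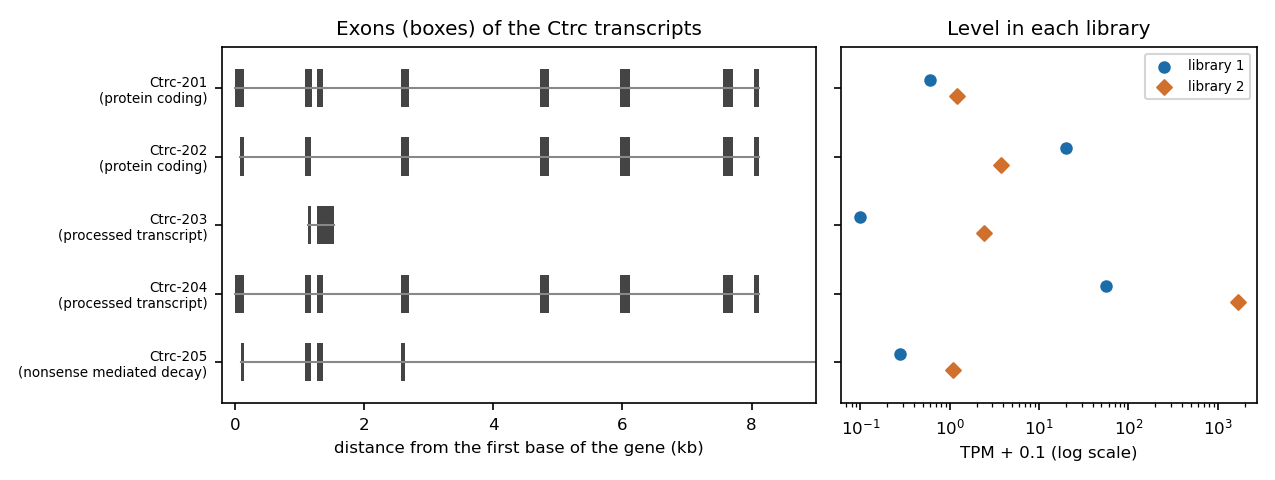
Left, exons of the 5 Ctrc transcripts as boxes against distance from the first base of the gene in kilobases, with Ctrc-205 running past the right edge. Right, TPM + 0.1 of each transcript on a log axis, with circles for library 1 and diamonds for library 2, where Ctrc-204 is at 55.4 and 1689 TPM and Ctrc-202 at 20.2 and 3.68 TPM.

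Ctrc-204 and Ctrc-201 have nearly the same exons, and the stretch where they part is shown here, because reads over it are what can separate the coding model from the noncoding one. The lines give the transcripts of GENCODE M21 over chr4:141845075-141845219 (GRCm38, minus strand, across 1 intron), 5′ to 3′, and capitals mark the 2 bases that are in Ctrc-204 and that the model of Ctrc-201 leaves out as a gap.
Ctrc-204: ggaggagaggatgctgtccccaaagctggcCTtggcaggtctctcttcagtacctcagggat
Ctrc-201: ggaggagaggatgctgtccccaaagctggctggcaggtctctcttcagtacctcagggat
A gap of 2 bases shifts the reading frame between the models. The annotation calls Ctrc-201, the model with the gap, protein coding, and Ctrc-204, without the gap, a processed transcript. Ctrc of C57BL/6 mice is known as a gene that does not yield a full-length enzyme. Which form can be translated in full was not tested. Few of the estimated reads, 18 in library 1 and 44 in library 2, were assigned to Ctrc-201, the model with the gap. Ctrc-204 took 1980 and 67612 of the reads, and Ctrc-202, whose model has no such gap in this exon, 557 and 114. Ctrc-204 has no stretch of 76 bases in another gene. Cela2a-201 shares 235 of 995 such windows with Ctrc, so a part of the reads of Cela2a lay on sequence that the annotation also gives to Ctrc-205.

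Trypsinogens, precursors of the protease that activates the other zymogens, held 17.4% of the acinar TPM in library 1 and 18.3% in library 2. The genes lie in a row on chromosome 6, between the parts of the T cell receptor beta locus. Prss2 (ENSMUSG00000057163, 41521787 to 41525079, plus strand) stood at 8835 and 8311 TPM and Try4 (41302269 to 41305532, plus strand) at 6834 and 6646 TPM. Their log2 ratios of 0.07 and 0.12 on the count scale are small, and negative as TPM differences. Try5 (41311233 to 41316841, minus strand) stood at 4206 and 2215 TPM and was 1.70-fold lower in library 2 (interval 1.69 to 1.72). Try4 was thus 1.62 times Try5 in library 1 and 3.0 times in library 2.

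The other 3 trypsinogens were far lower. Prss3 (41373814 to 41377678, minus strand) had 444 TPM in library 1 against 72.6 TPM in library 2, 5.50-fold lower (interval 5.27 to 5.75). Try10 stood at 53.8 and 71.4 TPM and was 1.48-fold higher (interval 1.39 to 1.57), so that Prss3 was 8.27 times Try10 in library 1 and 1.02 times in library 2. Prss1 stood at 11.3 and 9.20 TPM, a difference within counting error (0.910-fold, interval 0.774 to 1.07). The symbol Prss1 names the main trypsinogen in human pancreas, but in these mouse libraries that gene was the lowest of the 6.

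Neighbouring trypsinogen-like genes that are not among the 33 bear on these values. Gm5771 stood at 139.9 and 11.0 TPM (log2 ratio -3.51), and Gm10334 at 33.6 and 1.99 TPM (-3.89). 1810009J06Rik stood at 2.04 and 0.140 TPM (-3.28). All 3 were lower in library 2 beyond counting error, beside 26.0% of all genes tested. The neighbour of highest level, 2210010C04Rik, went the other way on the TMM scale, at 1578 and 1819 TPM (log2 ratio 0.33). Prss3, Gm5771 and Gm10334 together stood at 618 and 85.6 TPM, 6.48-fold lower in library 2. All 13 trypsinogen-like genes of the locus together held 735306 and 745163 counts, 1.00-fold on the TMM scale, and 22138 and 19157 TPM. The lower level of Prss3 and its near copies in library 2 was therefore small beside the locus as a whole, which was level on this scale and lower with spike-in scaling.

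**Figure D4:**
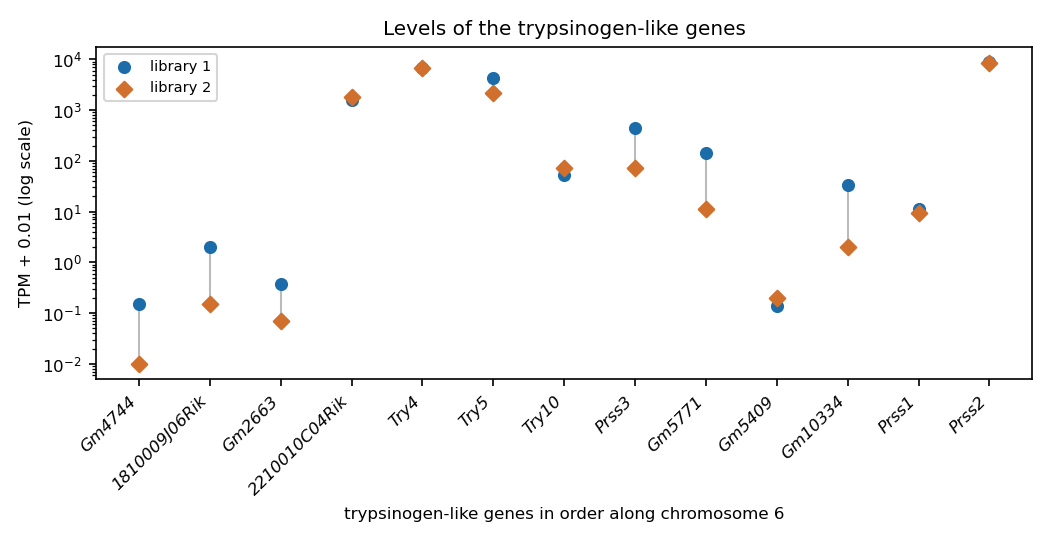
TPM + 0.01, on a log axis, of 13 trypsinogen-like genes in their order along chromosome 6, with circles for library 1 and diamonds for library 2 joined by a line. Prss3 (444 and 72.6 TPM), Gm5771 (139.9 and 11.0 TPM) and Gm10334 (33.6 and 1.99 TPM) are lower in library 2, while Prss2 and Try4 nearly coincide.

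Because their sequences are similar, some reads were divided among trypsinogens by estimation. The deposited credibility bounds were narrow, for Prss3 433 to 449 TPM in library 1 and 69.3 to 75.1 TPM in library 2. For Prss1, the lowest, they were 9.97 to 12.5 and 8.14 to 10.2 TPM. The coding sequences of the 6 are each 738 bases long and between 88.6% (Prss2 and Prss3) and 97.4% (Try4 and Try5) identical. Of the stretches of 76 bases in each transcript, 53.4% of those of Prss3 occur also in another gene, chiefly Gm10334 and Gm5771, beside 43.3% for Try4, 37.2% for Try5, 36.4% for Prss1 and 24.1% for Try10. Prss2 shares 0.811%, so its value depends least on how reads were divided. The next lines show, from GENCODE M21, coding bases 447 to 522 of Try4 and Try5, a stretch 1 read long, with the 5 positions that differ in capitals, out of 19 in the whole coding sequence.
Try4: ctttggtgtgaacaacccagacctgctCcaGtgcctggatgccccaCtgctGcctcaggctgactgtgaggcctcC
Try5: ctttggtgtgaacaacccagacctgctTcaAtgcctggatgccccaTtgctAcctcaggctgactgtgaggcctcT
A read over this stretch can be told apart by any of the 5 positions, whereas 248 of 663 windows of the same length in the coding sequences of Try4 and Try5 have none. The sum of Prss2, Try4 and Try5 stood at 19874 and 17172 TPM (0.963-fold on the count scale), a sum in which the division between Try4 and Try5 plays no part.

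Trypsin within the acinar cell is held in check by the inhibitor encoded by Spink1, which lies on chromosome 18. Spink1 stood at 49.6 and 45.6 TPM, and its counts of 499 and 541 did not differ beyond counting error (1.07-fold, interval 0.949 to 1.21). The level of Prss2 was 178 times that of Spink1 in library 1 and 182 times in library 2.

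Both procarboxypeptidases, which trim amino acids from the carboxyl end of peptides, were higher in library 2 on the TMM scale and lower with spike-in scaling. Cpa1, the carboxypeptidase A1 gene on chromosome 6, stood at 1629 and 1917 TPM, 1.29-fold higher (interval 1.28 to 1.3). Cpb1, the carboxypeptidase B1 gene on chromosome 3, stood at 189.6 and 292 TPM, 1.70-fold higher (interval 1.67 to 1.73). Cpa1 exceeded Cpb1 8.59 times in library 1 and 6.56 times in library 2.

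Among the 6 genes for fat digestion, 5 were higher in library 2 beyond counting error on the TMM scale, beside 24.3% of all genes tested, and all 6 were lower with spike-in scaling. Together they held 11.1% and 14.0% of the acinar TPM. Clps encodes colipase, the cofactor that anchors pancreatic lipase to fat droplets. It led the group at 9513 and 8716 TPM, with 154200 and 162055 counts, and its log2 ratio of 0.06 turns to -0.13 as a TPM difference. Pnlip, the pancreatic lipase gene itself, stood at 1512 and 2262 TPM and was 1.64-fold higher (interval 1.63 to 1.66). The lipase was therefore 0.159 of its cofactor in library 1 and 0.259 in library 2. Cel, the gene for bile salt-activated lipase, stood at 1266 and 1522 TPM, 1.23-fold higher (interval 1.22 to 1.24). The remaining members were Pnliprp1 and Pnliprp2, which encode lipase-related proteins, and Pla2g1b, which encodes pancreatic phospholipase A2, with mean levels from 53.8 to 358 TPM. Pla2g1b was the only one of the 6 that was lower in library 2 on the TMM scale (387 and 253 TPM).

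Amy2a5, a gene for pancreatic amylase, the starch-digesting enzyme (ENSMUSG00000074268, chromosome 3, 113247178 to 113258837, minus strand), stood at 412 and 728 TPM, 1.94-fold higher in library 2 (interval 1.91 to 1.96). It is 1 of 4 near-identical copies that were detected, and the deposited credibility bounds of its TPM ran from 38.4 to 852 in library 1 and from 71.5 to 1279 in library 2. The sum over Amy2a2, Amy2a3, Amy2a4 and Amy2a5, which does not depend on how reads were divided among these 4, was 1722 and 2895 TPM, 1.84-fold higher (interval 1.83 to 1.86). Amy2a1 and Amy2b, which also share stretches with Amy2a5, were at 0 in both libraries and at 3.11 and 3.19 TPM. The summed level lay near those of Cpa1 and Pnlip. With spike-in scaling the log2 ratio of Amy2a5 was 0.02. Rnase1, which encodes the pancreatic ribonuclease, stood at 1546 and 1588 TPM, with a log2 ratio of 0.19 that becomes negative with spike-in scaling.

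Proteins of the zymogen granule and its membrane differed among themselves. Sycn encodes syncollin, a protein bound to the inner face of the granule membrane (ENSMUSG00000084174, chromosome 7, 28540885 to 28542209, plus strand). It had 7591 TPM in library 1 against 3187 TPM in library 2, 2.10-fold lower (interval 2.08 to 2.12), on 125726 and 60475 counts. Zg16, which encodes a granule lectin, was nearly level at 959 and 921 TPM. Gp2, which encodes the main membrane glycoprotein of the granule, stood at 69.4 and 95.6 TPM, 1.51-fold higher (interval 1.46 to 1.56). Cuzd1, a granule membrane gene of lower level, had a mean of 12.8 TPM. The summed level of the 4 genes was 8630.1 and 4218 TPM, a difference that lay in Sycn.

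The regenerating proteins are small secreted lectins made by acinar cells in large amounts under stress. Reg1 stood at 682 and 633 TPM, and Reg2 at 22.9 and 31.1 TPM. Reg1 differed by 1.04-fold (interval 1.02 to 1.06) and Reg2 by 1.52-fold (interval 1.36 to 1.70), both higher in library 2 by counts and lower with spike-in scaling. Reg1 was also below 0 as a TPM difference (-0.11) and after the removal of a trend described below (-0.12).

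Acinar transcription factors lay below most of the enzymes, and 3 of 4 were detected. Rbpjl, the subunit of the PTF1 complex that is found in the mature acinar cell (ENSMUSG00000017007, chromosome 2, 164403141 to 164415448, plus strand), stood at 35.5 and 17.1 TPM, 1.89-fold lower in library 2 (interval 1.80 to 1.99). Ptf1a, the helix-loop-helix subunit of the same complex (chromosome 2, 19445663 to 19447501, plus strand), stood at 2.66 and 2.62 TPM, and its 166 and 181 counts did not differ beyond counting error (1.08-fold, interval 0.870 to 1.34). The level of Rbpjl was 13.3 times that of Ptf1a in library 1 and 6.52 times in library 2. Bhlha15, which plasma cells also use, stood at 6.86 and 5.52 TPM and was 1.14-fold lower (interval 1.04 to 1.25). Nr5a2 was at 0.20 TPM in both, on 32 and 28 counts, a depth at which no difference was detectable (0.866-fold, interval 0.503 to 1.49). Ctrb1 was 13902 times the level of Ptf1a in library 1 and 8038 times in library 2.

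Because the enzyme genes are known targets of PTF1, their start regions were examined for its letters. RefSeq promoters of GRCm38.p6, from 250 bases before to 50 after the start, were at hand for 27 of the 33 genes and were compared with 32851 promoters of the same length. The 3 shown here are those of Cela1 and Prss1, the only promoters of the 27 with the full PTF1 spacing searched, and of Try4, an abundant trypsinogen. Capitals mark the E-box CACCTG, the box TTTCCC and the nuclear receptor element AAGGTCA, each on either strand, and TATAAA on the given strand 20 to 40 bases before the start. Cela1 lies at chr15:100687871-100688170 (minus strand), Prss1 at chr6:41458680-41458979 (plus strand) and Try4 at chr6:41302022-41302321 (plus strand).
Cela1: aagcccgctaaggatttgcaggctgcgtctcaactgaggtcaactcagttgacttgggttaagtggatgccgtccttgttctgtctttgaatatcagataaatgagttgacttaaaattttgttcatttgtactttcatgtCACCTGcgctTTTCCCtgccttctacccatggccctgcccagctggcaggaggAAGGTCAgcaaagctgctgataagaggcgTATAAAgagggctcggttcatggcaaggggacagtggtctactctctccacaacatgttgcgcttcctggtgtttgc
Prss1: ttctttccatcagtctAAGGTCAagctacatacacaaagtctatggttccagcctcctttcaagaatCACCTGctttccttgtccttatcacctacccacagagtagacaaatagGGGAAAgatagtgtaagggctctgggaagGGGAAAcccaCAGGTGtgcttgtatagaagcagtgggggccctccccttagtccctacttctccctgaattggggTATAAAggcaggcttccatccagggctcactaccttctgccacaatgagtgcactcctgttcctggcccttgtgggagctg
Try4: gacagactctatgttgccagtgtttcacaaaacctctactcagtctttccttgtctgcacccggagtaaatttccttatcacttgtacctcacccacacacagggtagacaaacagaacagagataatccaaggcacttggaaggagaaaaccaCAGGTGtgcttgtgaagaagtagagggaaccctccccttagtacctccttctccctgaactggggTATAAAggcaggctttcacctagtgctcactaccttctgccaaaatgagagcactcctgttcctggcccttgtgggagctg
In the Cela1 line the E-box CACCTG is followed closely by TTTCCC on the same strand, the order in which the PTF1 complex is known to bind, and the TATAAA box starts 27 bases before the start. In Prss1 and Try4 the TATAAA box starts 31 bases before it.

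A gene was counted if any of its entries had the letters (28 entries for the 27 genes), whereas the share of all promoters was taken over entries. CACCTG was in a promoter of 15 of the 27 genes (55.6%), beside 20.2% of all promoters. Among them were Cela1, Cela2a, Cela3b and Ctrl, and also the transcription factor genes Bhlha15, Rbpjl and Nr5a2. Genes without it in this window included Ctrb1, the most abundant member, and Cpa1, Pnlip, Amy2a5, Rnase1 and Sycn. TTTCCC was in 10 (37.0%), beside 25.2%, and AAGGTCA in 3 (11.1%), beside 4.72%. The E-box followed by TTTCCC on 1 strand, with at most 30 bases between, was in 2 (7.41%), beside 0.347%. TATAAA at the usual distance was in 9 (33.3%), beside 1.87% of all promoters. The genes with it were Amy2a5, Cela1, Gp2, Pnlip, Prss1, Prss3, Reg1, Reg2 and Try4. These counts describe letters in a window. They show neither binding nor its absence, and members of a gene family share sequence by descent.

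The transcript tables give the forms behind the gene values. The 33 genes have 57 annotated transcripts, 21 genes have 1 and 12 have several. The leading transcript was the same in both libraries for 32 genes, with Nr5a2, on very few counts, as the exception. It was protein coding for 32 genes, with Ctrc as the exception. In 6 of the 12 genes with several forms, the leading one held over 95% in both libraries. Noncoding forms held more than 5% of a gene in at least 1 library for 4 genes, Ctrc, Cela2a, Cel and Rbpjl. The retained-intron transcript Cela2a-202 held 31.7% of Cela2a in library 1 and 25.6% in library 2, and was 5554 and 4349 TPM. Cel-202, a processed transcript, held 7.84% and 14.9% of Cel. Rbpjl-203, with a retained intron, held 13.8% and 14.6%.

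Base composition moved with the ratios. Across the 33 genes the log2 ratio had a Spearman correlation of -0.458 with the GC content of their transcripts, which ran from 38.8% to 57.6%, and across 14806 genes it had one of -0.334. Amy2a5 (38.8% GC) and Cpb1 (40.8%), the lowest in GC, had ratios of 0.95 and 0.77, while Sycn (56.8%), Rbpjl (56.8%) and Ctrb1 (57.6%) had -1.07, -0.92 and -0.66. With effective length, the length open to fragments, the Spearman correlation was 0.358 across the members and 0.0366 across all genes. The members were short, with a median of 721 bases beside 1996 for all genes. After the trend with length and GC over all genes was removed, the median of the 33 was 0.13, and Sycn came to -0.98, inside the 2-fold limit. Ctrc stayed at 4.83 and Prss3 at -2.41. Genes share a library here, so these correlations are descriptions. The part of base composition in the differences beyond that trend was not tested.

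**Figure D5:**
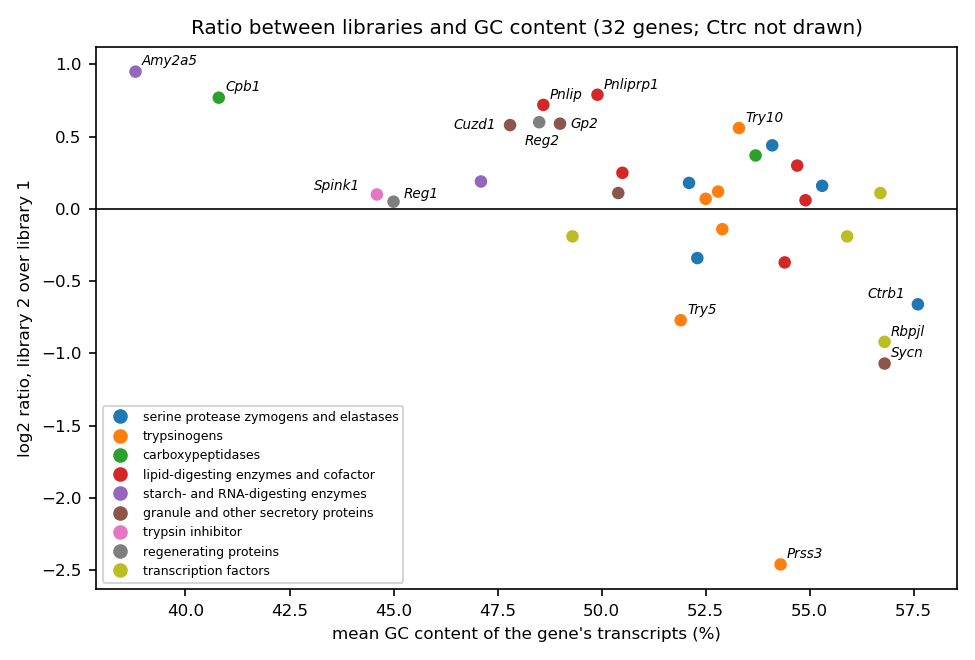
Log2 ratio of TMM-scaled counts, library 2 over library 1, against the mean GC content of a gene's transcripts in percent, for 32 acinar genes coloured by role, with Ctrc (56.5% GC, ratio 4.71) beyond the range drawn. Genes of low GC such as Amy2a5 (0.95) and Cpb1 (0.77) lie high, and genes of high GC such as Sycn (-1.07) and Ctrb1 (-0.66) lie low. Spink1 (0.10) and Reg1 (0.05), also low in GC, and Ptf1a (0.11) and Ctrl (0.16), high in GC, lie near 0. Spike-in scaling moves every point by -0.93.

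A further list of 33 acinar genes outside the chosen ones, also drawn up with earlier results known, had 19 genes detected, and none at 0 in both libraries. Among its highest members were 2210010C04Rik, the trypsinogen-like gene described above, and Klk1, the tissue kallikrein gene, at 838 and 906 TPM. Beyond counting error, 9 of the 31 tested were higher in library 2 and 10 lower on the TMM scale, shares near the 24.3% and 26.0% of all genes tested, with a median log2 ratio of -0.00. Cckar, the receptor for the gut hormone that triggers enzyme release, stood at 4.73 and 5.63 TPM. Gal, Fgf21 and Reg3b were among the lower ones, and the trypsinogen-like genes Gm5771, Gm10334, 1810009J06Rik and Gm2663 made up 4 of the 7 past 2-fold downward, a limit that 2.81% of all genes tested passed in that direction.

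Most genes of the other pancreatic cells were low, and Tff2 was the highest of them. Tff2, Muc1 and Ins2 each stood above several of the lower acinar genes in both libraries. Of 12 duct genes, 5 were detected, and Cftr, the chloride channel of duct cells, had 1 and 3 counts. The highest were Tff2 at 297 and 193 TPM, Muc1 at 23.5 and 15.6 TPM and Krt19 at 4.39 and 2.88 TPM. Onecut2 was at 0 in both. Beyond counting error 5 of the 10 duct genes tested were lower in library 2 and 0 higher on the TMM scale, beside 26.0% and 24.3% of all genes tested. Krt19 among the 5 is also a mesothelium gene. Of 19 islet genes, 2 were detected, the insulin genes Ins2 at 26.5 and 14.2 TPM and Ins1 at 5.69 and 3.38 TPM, and Mafa was next at 1.32 and 0.920 TPM. Glucagon (Gcg) had 5 and 2 counts and somatostatin (Sst) 7 and 1, and Neurod1 and Slc30a8 were at 0. Prss2 was 333 times the level of Ins2 in library 1 and 585 times in library 2, so the ratio of trypsinogen to insulin was not the same in the libraries.

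Genes of other glands and of the digestive tract were low. Of 12 salivary and lacrimal gland genes, 7 were at 0 in both libraries (Smr3a, Prol1, Bpifa2, Dcpp1, Dcpp2, Dcpp3 and Scgb2b27). The salivary amylase Amy1 stood at 0.270 and 0.580 TPM, beside 412 and 728 TPM for Amy2a5. Of 15 stomach and intestine genes, 1 was detected (Lyz1), and Gkn2, Gif, Tff1, Fabp2 and Defa24 were at 0. No liver gene of 6 reached 1 TPM in both libraries, and Serpina1a was at 10.7 and 0.580 TPM.

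The labelled tissue was present, since all 12 spleen genes were detected, with the B cell gene Cd79a at 1130.2 and 863 TPM and the stromal gene Tlx1 at 46.0 and 33.6 TPM. Their median log2 ratio was 0.21 on the TMM scale and below 0 with spike-in scaling, beside 0.12 for the acinar genes. On the TMM scale the spleen genes ran from -0.64 for Nkx2-5 to 0.83 for Spic, with Tlx1 at -0.33. The lists of mesothelium and adipose genes moved between the libraries in opposite directions, and cells of the spleen itself may also express some of their genes. All 5 mesothelium genes were lower in library 2 beyond counting error on the TMM scale, beside 26.0% of all genes tested, with a median log2 ratio of -0.61 that was negative on every scaling tried, led by Wt1 at 26.7 and 15.8 TPM. Of 6 adipose genes 5 were higher beyond counting error on the TMM scale, beside 24.3%, with a median of 1.06 (summed 50.9 and 109.9 TPM), led by Cfd at 42.0 and 94.7 TPM, and spike-in scaling turned Plin1 among the 5 negative. The part of either shift in the levels of the acinar genes was not tested.

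Genes of the secretory pathway, which plasma cells share with acinar cells, differed in both directions. All 22 were detected, and beyond counting error 10 of them were higher in library 2 and 5 lower on the TMM scale, beside 24.3% and 26.0% of all genes tested. They had a median log2 ratio of 0.08 on the TMM scale that becomes negative with spike-in scaling. Hspa5, the main chaperone of the endoplasmic reticulum, led them at 388 and 651 TPM, while Pdia3, a disulfide isomerase gene, stood at 361 and 196 TPM. All 9 plasma cell genes were detected, led by Jchain at 388 and 345 TPM, and with Bhlha15 among them. The level of Bhlha15 can therefore not be assigned to acinar or plasma cells in these bulk libraries.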

How the data were processed

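Members and gene lists were chosen with earlier results of these data known. Per the file headers and notes, the authors' deposited gene and transcript tables use mm10 with GENCODE M4. The deposited values are expected counts (estimated reads, not normalized), TPM, posterior means and FPKM (both scaled by the authors), credibility bounds, and each transcript's percent of the gene TPM. The aligner, the quantification tool and their versions were not given in the sources used here. Reads matching several genes were divided by the authors' estimation, so near-identical copies are uncertain. Deposited lists on mm9 were not used here.

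Symbols and positions were matched by unversioned identifier to GENCODE M21 of GRCm38 (42462 of 43346 genes). Spike-ins (97 entries) were left out of library sizes. Expected counts were rounded and scaled with TMM in edgeR 4.0.16 under R 4.3.3 (factors 1.01 and 0.988), with a prior count of 2 for log2 ratios, no prior for folds, and genes of 10 or more counts in total tested. Intervals are exact (Clopper-Pearson), and hold counting error alone, as reads that carry no molecular identifier are not separate molecules. Shared stretches of 76 bases and coding identities came from GENCODE M21 transcripts, promoters from RefSeq. Of the 33 genes, the highest 3 of each role, all trypsinogens and transcription factors, and genes past 2-fold were given in full, and of each further list up to the highest 3 and those at 0, with some genes not reported here. DESeq2 1.42.0 gave an alternative scaling. Python 3.11.15, pandas 2.3.3, numpy 2.4.6, scipy 1.17.1 and Biopython 1.88 did the rest, and the ratio and binomial steps were tested on simulated data.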

Additional observations from a re-analysis of the deposited data

How the results depend on the processing

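The share of TPM held by the 33 acinar genes, 10.7% on average, was 7.17% in expected counts and 14.3% with haemoglobin genes left out of the denominator, and ranged from 9.59% to 11.8% with a library left out. Their median level ranged from 444 to 728 TPM in the same way, and 32 were detected in either library. The median log2 ratio of 0.12 was 0.11 with DESeq2 size factors, 0.08 with total gene counts, 0.16 with the upper quartile, 0.16 with totals that leave out haemoglobin and acinar genes, 0.13 with the length and GC trend removed and 0.18 without the 6 trypsinogens. It reversed to -0.81 with spike-in totals, beside -0.91 for all genes tested. As a difference of log2(TPM + 1) it reversed to -0.02, beside -0.08. The spike-in counts that follow hold this shift of all genes, whose shares past the limits on that scale are not given here. With spike-in totals 11 genes were past 2-fold, in place of 3, and 2 were higher and 31 lower beyond counting error. Of 363 values of single genes under alternatives, 351 stayed on their side of the 2-fold limit, Sycn left it (-0.98 with the length and GC trend removed), 11 passed it, and no gene past 2-fold on the TMM scale changed sign. The median without Ctrc was an alternative added after the data were seen. No paired analysis was possible because there is 1 group, and no ratio between 2 libraries can be computed with 1 left out. The copies of amylase and trypsinogen are limited by shared sequence, those of amylase more by the deposited bounds, and Nr5a2 and Ptf1a by depth.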
